A study of Mus musculus with 6 samples.

Results

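Lrp1b, Csmd1, Nbea and Fat3 are very long neuronal genes that give rise to circular RNAs (circRNAs), and 84 of the 10652 circRNAs in the deposited hippocampal table list one of them as a host gene. A circRNA was counted as a member when its list of Ensembl host identifiers held ENSMUSG00000049252 (Lrp1b), ENSMUSG00000060924 (Csmd1), ENSMUSG00000027799 (Nbea) or ENSMUSG00000074505 (Fat3). This gave 30 circRNAs of Lrp1b, 26 of Csmd1, 24 of Nbea and 4 of Fat3. A large number of circRNAs is thus a property of the first 3 genes and not of Fat3, which stood out by the level of a single circRNA. The genes were chosen by the number of their circRNAs and by their levels in these libraries, so both are described here and were not tested against other hosts.

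The tissue was hippocampus in every library, taken from male C57BL/6J mice (strain label C57BL/6) that were adult, 8 to 10 weeks old, when bought. The 3 libraries of the Control group came from mice outside the stress schedule. The 3 libraries of the CUS group came from mice kept for 4 weeks under chronic unpredictable stress (CUS), a random sequence of stressors such as food or water deprivation, cold swimming, restraint, tail nipping and cage tilt. Samples are called independent, but whether a sample was 1 mouse or a pool is left unsaid, and p-values cover the spread of these libraries only, which may be technical. RNA was poly(A)-selected before sequencing, which can lower and distort the recovery of rings, since they carry no poly(A) tail.

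An exonic circRNA forms when a downstream splice donor is joined back to an upstream acceptor, closing exons into a ring. Genes with many exons and long introns offer many such junctions, and neurons are known to accumulate circRNAs because rings resist exonuclease decay. Lrp1b encodes an endocytic receptor of the low-density lipoprotein (LDL) receptor family. Csmd1 encodes a transmembrane protein with CUB and sushi domains that inhibits complement. Nbea encodes neurobeachin, a BEACH-domain scaffold that helps bring receptors to synapses. Fat3 encodes an atypical cadherin, known in the mouse retina for shaping the dendrites of amacrine cells.

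By the GENCODE vM21 annotation of GRCm38, Lrp1b lies on the minus strand of chromosome 2 (40595246 to 42653624), spans 2058.4 kb and has 91 exons in its transcript with most exons. Csmd1, on the minus strand of chromosome 8 (15892537 to 17535586), spans 1643.0 kb with 70 exons. Nbea, on the minus strand of chromosome 3 (55625195 to 56183701), spans 558.5 kb with 58 exons. Fat3, on the minus strand of chromosome 9 (15910189 to 16501285), spans 591.1 kb with 26 exons. These are positions of the genes, because the table was used without positions of the circRNAs.

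Levels below are 10 to the deposited value, with 0 kept at 0, and a host sum is the summed level of all circRNAs of a gene. The libraries held 3991 to 4606 circRNAs above 0, with summed levels of 1990255 to 2050720. No source used here names the unit, so read numbers are unknown, and a value of 0 means not detected at this depth. Relative depth, read from the smallest step between levels, was 90.8% to 100% of the deepest library in Control and 81.9% to 89.8% in CUS. As a check of the tissue label, 8 of 10 neuronal marker genes had a circRNA, while 0 of 5 microglial markers and 1 of 6 vascular and choroid markers did. The neuronal sums were 17943 to 23395 in Control and 18275 to 24337 in CUS, but the 8 genes did not move together. Grin2b was at 3264, 1044 and 1676 in Control and at 5177, 4397 and 3221 in CUS. Grm5 went the other way, from 5485, 8738 and 6790 to 2848, 3894 and 6031, and both overlapped between groups. Of 4 dentate granule cell markers 3 had circRNAs, with sums of 1527 to 2920 in Control and 3993 to 5489 in CUS. Among these, Rfx3 was at 1195 to 1788 in Control and 2910 to 4395 in CUS, while Dock10 overlapped between groups and Prox1 was at 0 in 4 of 6 libraries. Sums over 3 of 7 astrocyte markers were 1085 to 1525 and 1462 to 2642, and over 3 of 6 oligodendrocyte markers 305 to 1060 and 557 to 1702. Of the oligodendrocyte markers, Slc44a1 was at 444, 0 and 556 in Control and at 1427, 557 and 598 in CUS. Prr5l overlapped between groups, and Mbp was above 0 in CUS replicate 3 only. The astrocyte markers did not move together. Gpc5 was at 377, 1056 and 801 in Control and lower in CUS, at 348, 296 and 179, while Slc1a2 and Slc4a4 overlapped between groups. The part of these marker levels in the results below was not tested. In tissue of mixed cells, fewer cells of a type and less RNA per cell cannot be told apart.

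The number of circRNAs per host was set beside gene length and exon number. Over 3772 hosts the median was 2 circRNAs, and 1812 hosts (48%) had 1. Lrp1b, Csmd1 and Nbea held ranks 1, 2 and 3, and the next host was Dnah9, an axonemal dynein gene, with 21. Only 6 of the 3772 hosts had 20 or more. Nbea and Fat3 have almost the same length but 24 and 4 circRNAs.

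Per 100 kb of gene, Nbea had 4.3 circRNAs, Csmd1 1.58, Lrp1b 1.46 and Fat3 0.677. The median was 2.6 per 100 kb over 3613 protein-coding hosts, whose median length was 76.4 kb, and 0.516 over the 177 of them that span at least 500 kb. All 4 genes were thus above the median of long hosts, and Nbea was also above the median of all protein-coding hosts. Per 10 exons the values were 4.14 for Nbea, 3.71 for Csmd1, 3.3 for Lrp1b and 1.54 for Fat3. Of the 177 long hosts, 99 had 4 or fewer circRNAs and the median was 4, the number of Fat3. Between 500 and 650 kb, the range that holds Nbea and Fat3, 67 other hosts had a median of 3 circRNAs and at most 17. Across the 3613 protein-coding hosts, Spearman's rho was 0.45 between the number of circRNAs and gene length and 0.29 between that number and exon number. Length and exon number were themselves related (rho = 0.37), and these values are descriptions across genes, which are not independent replicates.

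**Figure D1:**
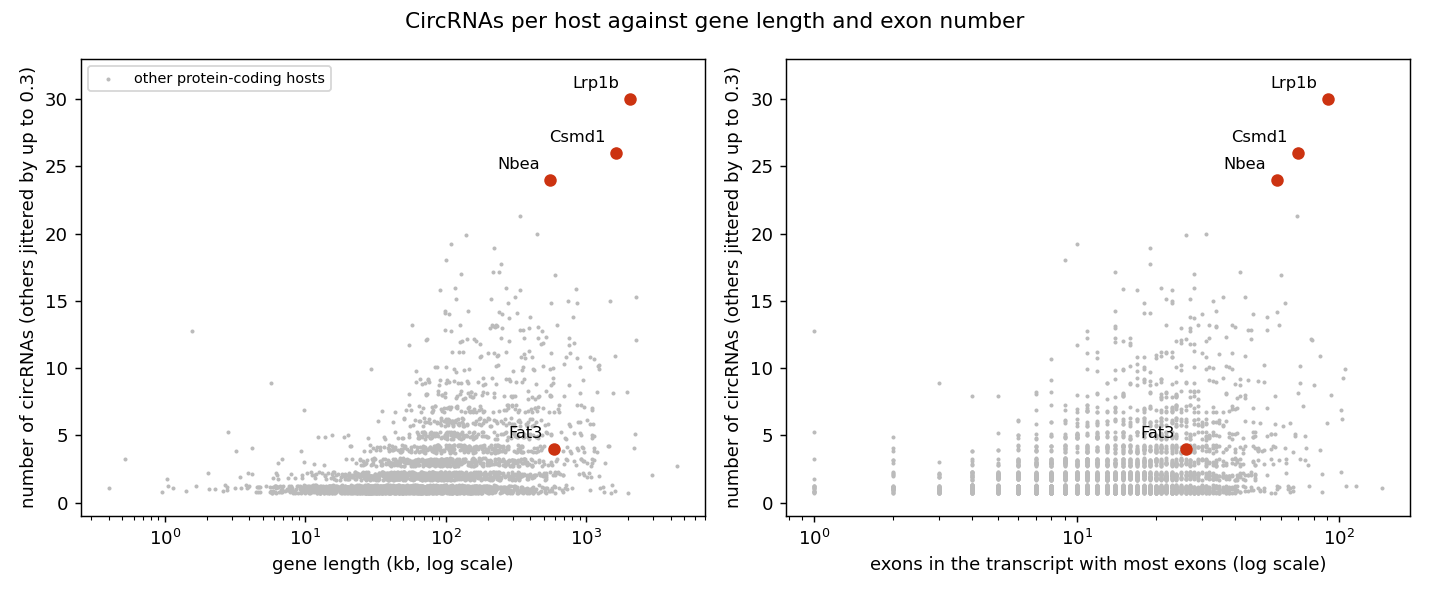
Number of circRNAs per protein-coding host against gene length in kb (left, log scale) and against the exons of the transcript with most exons (right, log scale). Each grey point is a host, and red points are Lrp1b (30), Csmd1 (26), Nbea (24) and Fat3 (4), of which the first 3 lie above all other hosts while Fat3 lies within the cloud.

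The genes differed in how their circRNAs recurred across libraries. Of the 84 circRNAs, 29 (34.5%) were above 0 in 1 library, 19 in 2 libraries, 36 in at least 3 and 7 (8.33%) in all 6. In the table as a whole, 36.9% were above 0 in 1 library and 7.55% in all 6, so the members as a whole recurred about as often as other circRNAs. Lrp1b had 4 circRNAs above 0 in all 6 libraries, Csmd1 2, Fat3 1 and Nbea 0. Nbea, at rank 3 by number of circRNAs, thus had a host sum above 0 in every library, without a single circRNA found in all of them. Csmd1 had the largest share seen in 1 library, 12 of 26 (46.2%), and these 12 held 29.3% of its mean host sum. For Lrp1b the circRNAs seen in 1 library were 9 of 30 (8.81% of the sum) and for Nbea 7 of 24 (15.6%).

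Single-library circRNAs were not all low. In Nbea, mmu_circRNA006653 was at 1180 in CUS replicate 3 and mmu_circRNA006663 at 957 in Control replicate 3, and both were listed at 0 in the other libraries. In Csmd1, the intronic mmu_circRNA009858 was at 1067 in CUS replicate 1, and the exonic mmu_circRNA009832 and mmu_circRNA009840 were at 912 and 780 in CUS replicate 2. The lowest single-library level was 86.9 in Csmd1, 227 in Nbea and 247.5 in Lrp1b, and the medians were 439, 545 and 401. Between pairs of libraries of the same group, 38.8% (median) of the Nbea circRNAs of a library were shared, 47.2% for Csmd1, 53.9% for Lrp1b and 83.3% for Fat3, beside 49.7% for all circRNAs. Between libraries of different groups the medians were 50%, 47.8%, 53.9% and 66.7%, beside 48.6%. Replicates of 1 group therefore did not share more Nbea, Csmd1 or Lrp1b circRNAs by this median than libraries of different groups did.

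**Figure D2:**
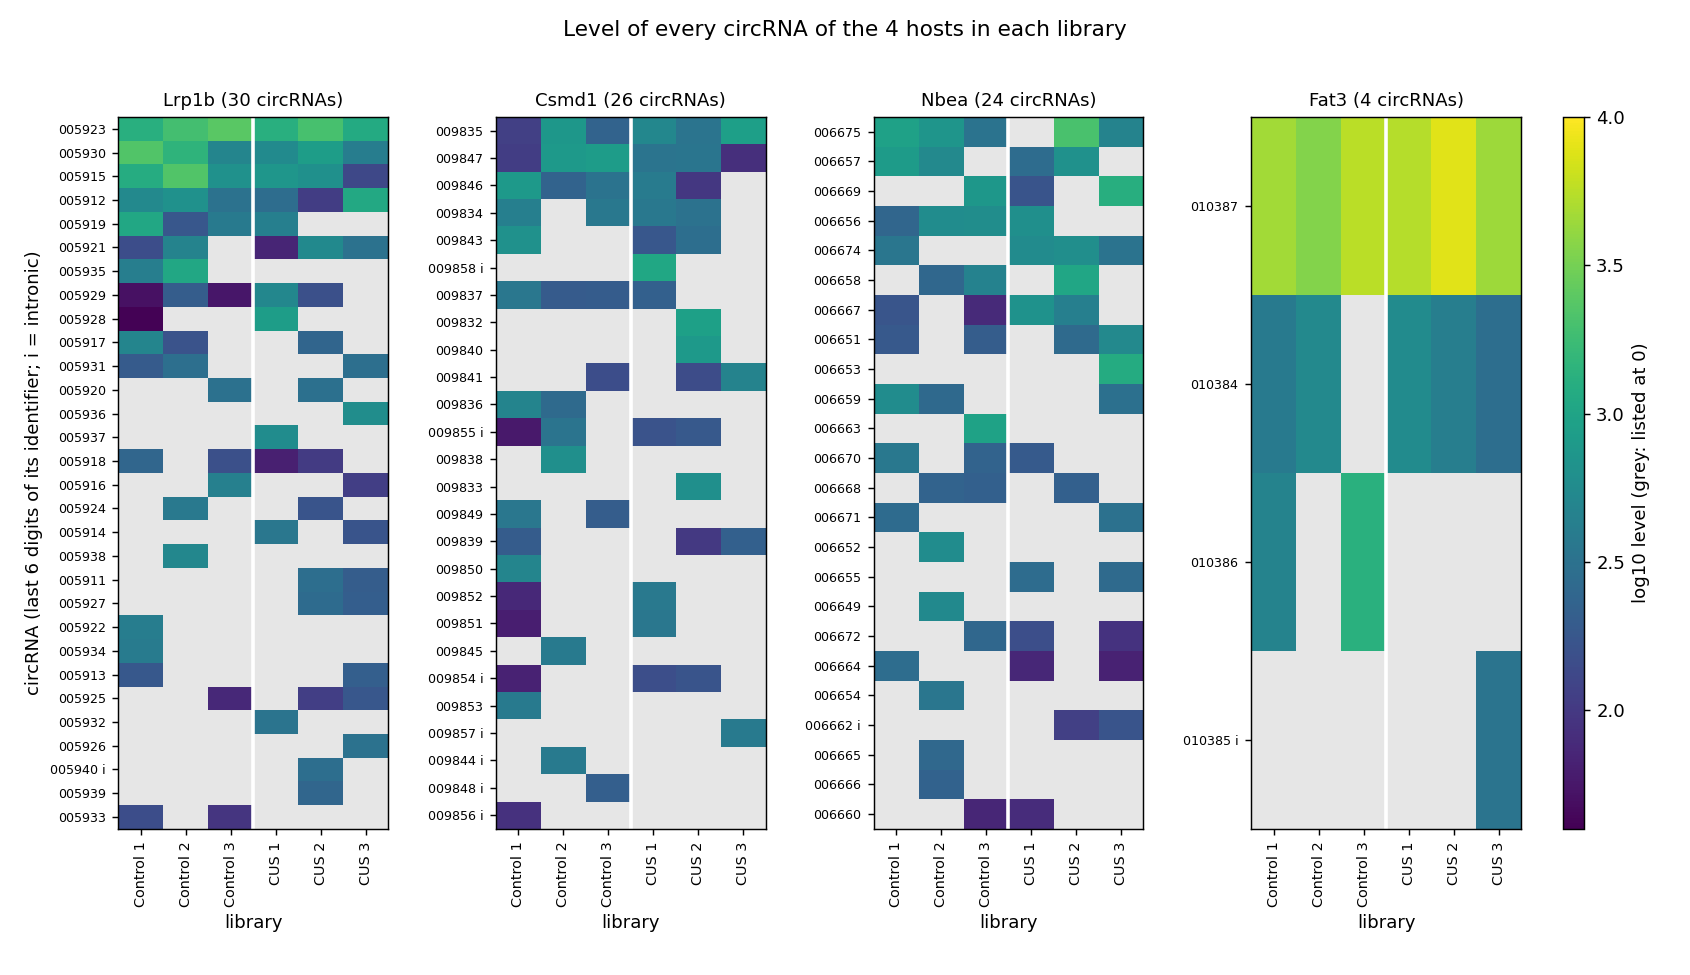
Level of each of the 84 circRNAs (lines, ordered by mean within each host) in the 6 libraries (columns), as a colour on a log10 scale, with grey for a circRNA listed at 0. Only 7 of the 84 circRNAs are coloured in all 6 libraries, and in Nbea none is.

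By class, 74 of the 84 circRNAs were exonic and 10 intronic. Csmd1 held 7 of the intronic ones, 26.9% of its 26 circRNAs, beside 4.41% (470) of all circRNAs in the table. Lrp1b, Nbea and Fat3 held 1 each. The 7 intronic circRNAs made up 15% of the mean Csmd1 host sum, and 5 of them were above 0 in 1 library. The most recurrent was mmu_circRNA009855, at 57.9, 330 and 0 in replicates 1 to 3 of Control, against 162, 188 and 0 in those of CUS. mmu_circRNA009854 was at 67.6, 0 and 0 in Control and at 150, 167 and 0 in CUS. Control replicate 3 and CUS replicate 3 had neither of them.

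Identifiers in the table follow the order of the host genes. Among neighbouring identifiers on 1 chromosome, the host start did not decrease in 99.7%. The 30 Lrp1b circRNAs held consecutive identifiers, from mmu_circRNA005911 to mmu_circRNA005940. The 5 highest identifiers of Csmd1, mmu_circRNA009854 to mmu_circRNA009858, were all intronic. No source used here says whether the order within a gene follows position.

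A total of 5 circRNAs listed another gene beside the host, each lying within an intron of it. mmu_circRNA009839 of Csmd1 listed the microRNA gene Mir3106 (chromosome 8, 16168757 to 16168838, GRCm38), which lies between exons 23 and 24 of the Csmd1 transcript with 70 exons. It was at 200, 0 and 0 in Control and at 0, 99.5 and 217 in CUS. mmu_circRNA006665 and mmu_circRNA006666 of Nbea listed the snoRNA gene Gm22784 (chromosome 3, 55956782 to 55956913), between exons 31 and 32, and were at 257 and 227 in Control replicate 2 and listed at 0 elsewhere. mmu_circRNA006667 of Nbea listed Gm42840 (chromosome 3, 56014918 to 56017168), annotated only as a candidate gene, between exons 18 and 19, and was at 171, 0 and 77.1 in Control and at 660, 430 and 0 in CUS. mmu_circRNA005937 of Lrp1b listed the processed pseudogene Gm13461 (chromosome 2, 41987473 to 41988829), between exons 2 and 3, and was at 590 in CUS replicate 1 alone. None of these 4 genes overlaps an exon of the host transcript used for numbering, and exons were counted from the 5′ end.

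By the mean over all 6 libraries, the Lrp1b circRNAs had the highest host sum of the 4 genes (7004) and ranked 6 among all hosts, although Fat3 was higher in Control replicate 3, in CUS replicate 2 and in the CUS mean. The host sum was 9130, 9536 and 5447 in replicates 1 to 3 of Control, against 6115, 6355 and 5439 in those of CUS. Control replicates 1 and 2 were higher than the rest, and Control replicate 3 lay with the CUS libraries, so the groups overlapped. The log2 difference, CUS minus Control, was -0.39 with SE 0.30 (95% interval -0.99 to 0.22; limma adjusted p = 0.918). Of the host sums tested, 0% passed an adjusted p under 0.05 in limma and 5.7% (127 of 2227) had an unadjusted p under 0.05, which none of the 4 genes did. Groups did not overlap for 11.4% (254) of the host sums, and for 0 of the 4 genes.

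The leading Lrp1b circRNA, mmu_circRNA005923, was at 1294, 1898 and 2458 in Control and at 1312, 2004 and 1161 in CUS, and held 24.1% of the mean host sum. It was the highest Lrp1b circRNA in 4 of the 6 libraries. mmu_circRNA005930 was at 2250, 1460 and 492 in Control and at 563, 866 and 413 in CUS. mmu_circRNA005915 was at 1217, 2224 and 657 in Control and at 722, 640 and 133 in CUS. For both, Control replicates 1 and 2 were above every CUS library and Control replicate 3 was not. mmu_circRNA005912, the fourth one found in every library, was at 541, 648 and 319 in Control and at 289, 108 and 1114 in CUS, highest in CUS replicate 3. The leading circRNA took 14.2%, 19.9% and 45.1% of the host sum in Control, against 21.5%, 31.5% and 21.3% in CUS, so the group means (26.4% ± 16.5 and 24.8% ± 5.85; SD, n = 3 each) differed by less than the spread (exact permutation p = 1, two-sided).

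A further 26 Lrp1b circRNAs were each above 0 in 1 to 5 libraries. mmu_circRNA005919 was at 1086, 179 and 391 in Control and at 430, 0 and 0 in CUS. mmu_circRNA005935 was at 422 and 1104 in Control replicates 1 and 2 and listed at 0 in the other 4 libraries, while mmu_circRNA005928 was at 41 in Control replicate 1 and 870 in CUS replicate 1. Among these circRNAs high values thus occurred in either group, often in 1 library. mmu_circRNA005911 and mmu_circRNA005927 were at 296 and 274 in CUS replicate 2 and at 204 and 209 in CUS replicate 3, and listed at 0 in the other 4 libraries. Their levels differed by at most 7.27% of the higher in either library, and they may share reads. They were the only pair of the 84 circRNAs within 10% in every library where either was above 0, counting circRNAs above 0 in at least 2 libraries. Of the 30 circRNAs, 5 were above 0 in Control only, 9 in CUS only and 16 in both. Over the 84 circRNAs of the 4 genes these shares were 25% (21), 21.4% (18) and 53.6% (45), near the 27%, 23.4% and 49.6% over all circRNAs.

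Csmd1 had the lowest mean host sum of the 4 genes (3610) and the smallest share in its leading circRNA. The host sum was 4725, 3943 and 2522 in Control, against 4116, 4303 and 2052 in CUS. The replicate 3 libraries of both groups were the lowest, and the group ranges overlapped. The log2 difference was -0.12 with SE 0.40 (95% interval -0.92 to 0.68; limma adjusted p = 0.964).

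The leading Csmd1 circRNA, mmu_circRNA009835, held 13.1% of the mean host sum, against 24.1% for Lrp1b and 17% for Nbea. It was at 113, 739 and 229 in Control and at 513, 331 and 902 in CUS. mmu_circRNA009847, the other one found in every library, was at 109, 784 and 843 in Control and at 330, 344 and 84.3 in CUS. Each varied widely within both groups. mmu_circRNA009846 was at 799, 232 and 327 in Control and at 398, 96.8 and 0 in CUS. Over the 6 libraries 5 different Csmd1 circRNAs were the highest, and mmu_circRNA009835 led in 1 library, CUS replicate 3, where it took 44% of the host sum. The number above 0 was 16, 9 and 8 in Control, against 11, 12 and 5 in CUS, widest in Control replicate 1, the library of greatest relative depth, whose part in this was not tested. Group means were 11 ± 4.36 and 9.33 ± 3.79 (SD, n = 3 each; exact permutation p = 0.7, two-sided).

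mmu_circRNA009851 and mmu_circRNA009852 of Csmd1 were both above 0 in Control replicate 1 (62.8 and 74.8) and CUS replicate 1 (360 and 374) and at 0 elsewhere. Their levels differed by at most 16.1% of the higher, outside the 10% limit used for close pairs. mmu_circRNA009837 was at 352, 194 and 199 in Control and at 215, 0 and 0 in CUS, and mmu_circRNA009836 at 485 and 267 in Control replicates 1 and 2 with 0 in the rest. Among the 26 circRNAs, 34.6% (9) were above 0 in Control only, 19.2% (5) in CUS only and 46.2% (12) in both, beside 27%, 23.4% and 49.6% over all circRNAs.

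In Nbea, as in Csmd1, the set of circRNAs behind the host sum changed from library to library. The Nbea host sum was 4220, 4541 and 4133 in Control, against 3075, 5377 and 5010 in CUS. The Control libraries lay close together, between CUS replicate 1 below and CUS replicates 2 and 3 above. The log2 difference was 0.02 with SE 0.35 (95% interval -0.69 to 0.73; limma adjusted p = 0.988). The coefficient of variation (SD over mean) of the host sum over the 6 libraries was 18.2%, against 26.3% for Lrp1b, 29.6% for Csmd1 and 24.1% for Fat3. The spread was small in Control (4298 ± 215; SD, n = 3) and wider in CUS (4487 ± 1237; SD, n = 3), where Lrp1b varied less (5970 ± 475). Its median was 28.8% over the 81 hosts above 0 in all 6 libraries with a mean sum of at least 3000.

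The leading Nbea circRNA, mmu_circRNA006675, varied far more than the sum, with a coefficient of variation of 94.6%. It was at 932, 711 and 324 in Control and at 0, 2025 and 476 in CUS, so both the highest value and the 0 fell in CUS. mmu_circRNA006657 was at 833, 537 and 0 in Control and at 280, 656 and 0 in CUS. mmu_circRNA006669 was at 0, 0 and 747 in Control and at 168, 0 and 1275 in CUS, high in the replicate 3 library of both groups. A different Nbea circRNA led in Control replicate 3, CUS replicate 1 and CUS replicate 3, 4 circRNAs in all. The number above 0 was 10, 11 and 11 in Control, against 10, 8 and 11 in CUS (10.7 ± 0.577 and 9.67 ± 1.53; SD, n = 3 each; exact permutation p = 0.7, two-sided).

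mmu_circRNA006674 of Nbea had the smallest unadjusted limma p of all 36 members tested (p = 0.066, adjusted p = 0.872). It was at 345, 0 and 0 in Control and at 572, 616 and 326 in CUS. Control replicate 1 lay within the CUS range, so the groups overlapped. The other direction was seen for mmu_circRNA006656, at 249, 580 and 596 in Control and at 619, 0 and 0 in CUS. Among the 24 circRNAs, 25% (6) were above 0 in Control only, 12.5% (3) in CUS only and 62.5% (15) in both, beside the same shares over all circRNAs (27%, 23.4% and 49.6%).

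Fat3 had 4 circRNAs and almost all of its level in 1 of them. The host sum was 5466, 4129 and 6958 in Control, against 5964, 8216 and 5110 in CUS, rank 9 among all hosts. CUS replicate 2 was highest and Control replicate 2 lowest, and the other libraries overlapped. The log2 difference was 0.22 with SE 0.32 (95% interval -0.42 to 0.87; limma adjusted p = 0.918). Without the leading circRNA the direction turned, to -0.62 (limma adjusted p = 0.917).

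mmu_circRNA010387 of Fat3 ranked 3 by mean among all 10652 circRNAs and held 88% of the mean Fat3 host sum. It was the highest Fat3 circRNA in all 6 libraries, from 3597 in Control replicate 2 to 7791 in CUS replicate 2, with a coefficient of variation of 27.4%. Among the 250 hosts with 4 circRNAs, Fat3 included, 4 had a larger leading share, and the median was 46%. Among the 177 protein-coding hosts of at least 500 kb, the median leading share was 51.2% and 31 hosts exceeded Fat3. Of these 177 hosts, 28 had a single circRNA and thus a leading share of 100% by construction, and 3 of the 31 had more than 1. mmu_circRNA010384 was at 377, 532 and 0 in Control and at 572, 425 and 294 in CUS. mmu_circRNA010386 was at 471, 0 and 1316 in Control and undetected in every CUS library, and the intronic mmu_circRNA010385 was at 332 in CUS replicate 3 alone.

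The share of mmu_circRNA010387 in the Fat3 host sum was 84.5%, 87.1% and 81.1% in Control, against 90.4%, 94.8% and 87.8% in CUS. Every CUS library was above every Control library, the one separation of groups among the 8 comparisons of numbers and leading shares. Group means were 84.2% ± 3.03 and 91% ± 3.57 (SD, n = 3 each). The exact two-sided permutation p was 0.1, the smallest that 3 against 3 allows, and 0.8 after Benjamini-Hochberg adjustment over the 8 comparisons. The 7 other comparisons had exact permutation p-values of 0.6 to 1. How often the leading share separated the groups over all hosts was not worked out. For host sums, groups did not overlap in 11.4% (254) of those tested. The level of mmu_circRNA010387 itself overlapped between groups. The Fat3 circRNAs other than mmu_circRNA010387 summed to 847, 532 and 1316 in Control, against 572, 425 and 625 in CUS. Of these sums mmu_circRNA010386 made up 471, 0 and 1316 in Control, and 0 in every CUS library. It was thus all of the remainder in Control replicate 3 and none of it in Control replicate 2, whose share (87.1%) was also below every CUS library. The part of mmu_circRNA010386 in the difference was not tested.

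**Figure D3:**
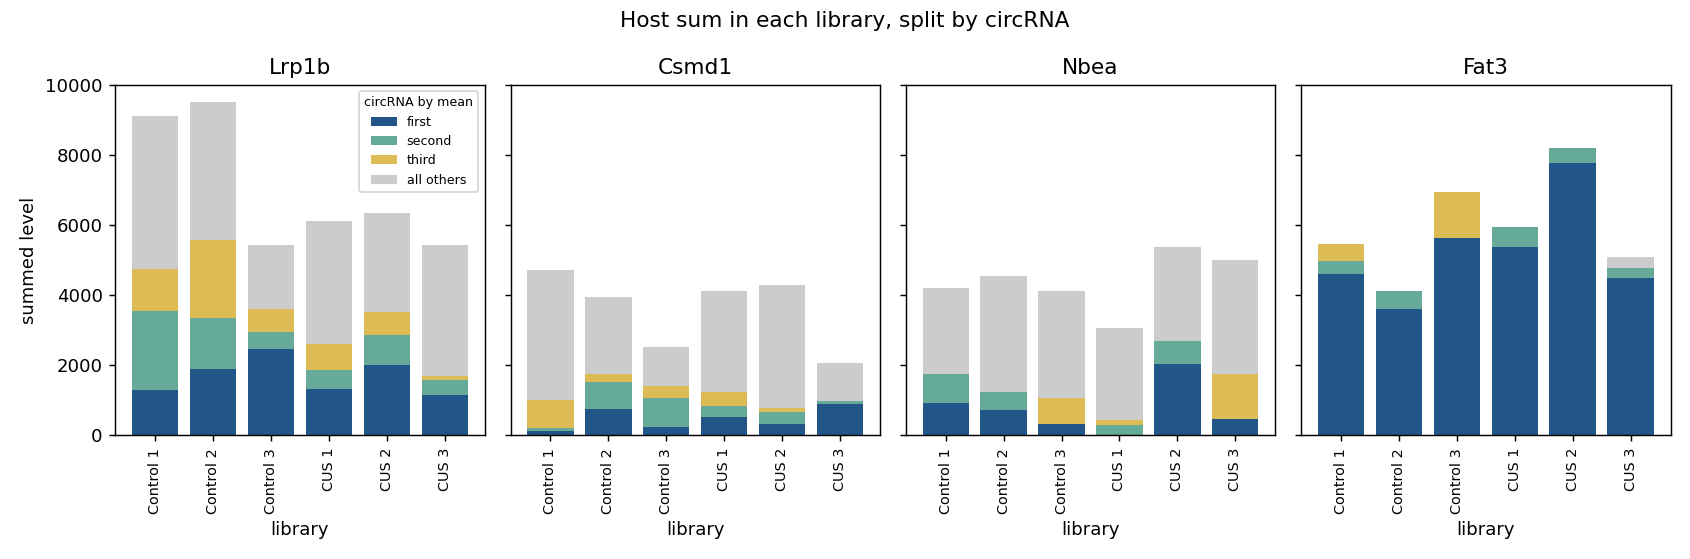
Host sum of each gene in the 6 libraries as bars from 0, split into the 3 circRNAs of highest mean and all others. In Fat3 the leading circRNA fills 81.1% to 94.8% of each bar, and in Csmd1 2.4% to 44%.

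**Figure D4:**
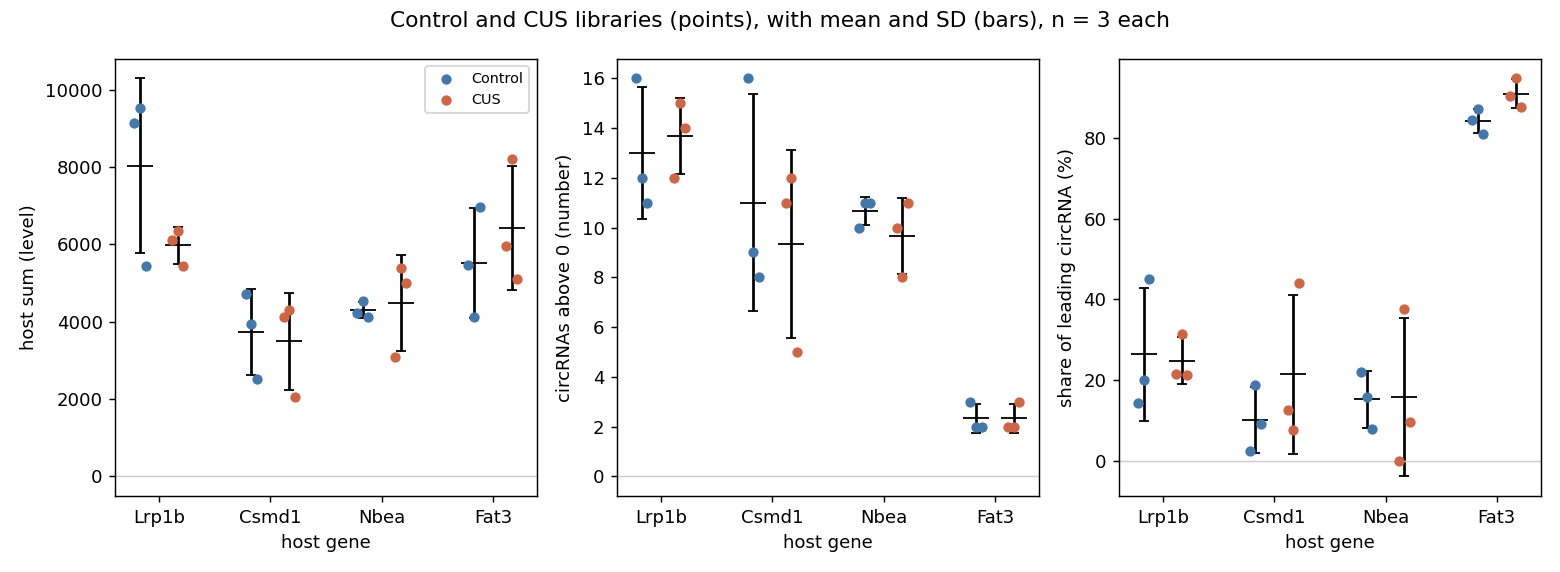
Host sum, number of circRNAs above 0 and share of the leading circRNA in % for each gene, with 1 point per library and black bars for mean and SD (n = 3 each). Control and CUS points overlap in each comparison but 1, the leading share of Fat3 (81.1% to 87.1% against 87.8% to 94.8%).

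Single circRNAs were tested between CUS and Control where they were above 0 in at least 3 libraries, which held for 36 of the 84. The other 48 were above 0 in 1 or 2 libraries and were not tested. Of the tested circRNAs 11 belonged to Lrp1b, 10 to Csmd1, 13 to Nbea and 2 to Fat3. In limma 0 of the 36 had an unadjusted p under 0.05, beside 6.01% (234) of all 3896 tested circRNAs, and 0 passed an adjusted p under 0.05, beside 0% of all. None had groups that did not overlap, beside 10.9% (423) of all. The fitted difference was above 0 for 16 and below 0 for 20, with a median of -0.23 on the log2 scale, beside 1840 and 2056 with a median of -0.12 over all. Leaving out CUS replicate 1 brought 3 members (mmu_circRNA005915, mmu_circRNA005919 and mmu_circRNA006656) to an unadjusted limma p under 0.05, beside 3.99% (128 of 3211) of all circRNAs. Leaving out Control replicate 1 brought 1 (mmu_circRNA006674), beside 3.05% (94 of 3086). Without Control replicate 3 it was also 1 (mmu_circRNA005915), beside 3.02% (95 of 3145). The limma adjusted p-values of these members were 0.769 to 0.962. By gene the median was -0.60 for Lrp1b (3 above and 8 below 0), -0.39 for Nbea (5 and 8), 0.27 for Csmd1 (6 and 4) and 0.69 for Fat3 (2 and 0). No circRNA of the 4 genes was above 0 in all libraries of 1 group and at 0 in all of the other, a pattern that 94 circRNAs of the table showed for Control and 73 for CUS.

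The intervals of single circRNAs were wide. mmu_circRNA010387 of Fat3, the most abundant, had a log2 difference of 0.33 (95% interval -0.36 to 1.03). For mmu_circRNA005923 of Lrp1b it was -0.32 (-1.44 to 0.80), for mmu_circRNA009835 of Csmd1 0.85 (-1.20 to 2.89) and for mmu_circRNA006675 of Nbea -0.83 (-3.18 to 1.52). A 2-fold change in either direction lies within the intervals of mmu_circRNA009835 and mmu_circRNA006675. A 2-fold fall lies outside that of mmu_circRNA010387, and a 2-fold rise outside that of mmu_circRNA005923. With 1 library left out, the difference ran from 0.11 (without CUS replicate 2) to 0.51 (without CUS replicate 3) for mmu_circRNA010387, and from -0.56 (without Control replicate 1) to -0.11 (without Control replicate 3) for mmu_circRNA005923. For mmu_circRNA009835 it ran from 0.33 (without Control replicate 1) to 1.48 (without Control replicate 2). The negative mmu_circRNA006675 difference goes against the group means of its levels (656 in Control and 834 in CUS). It was 0.68 without CUS replicate 1, where the circRNA was at 0, -2.08 without CUS replicate 2, and -1.55 and -0.25 with 0.2 and 5 times the pseudocount.

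**Figure D5:**
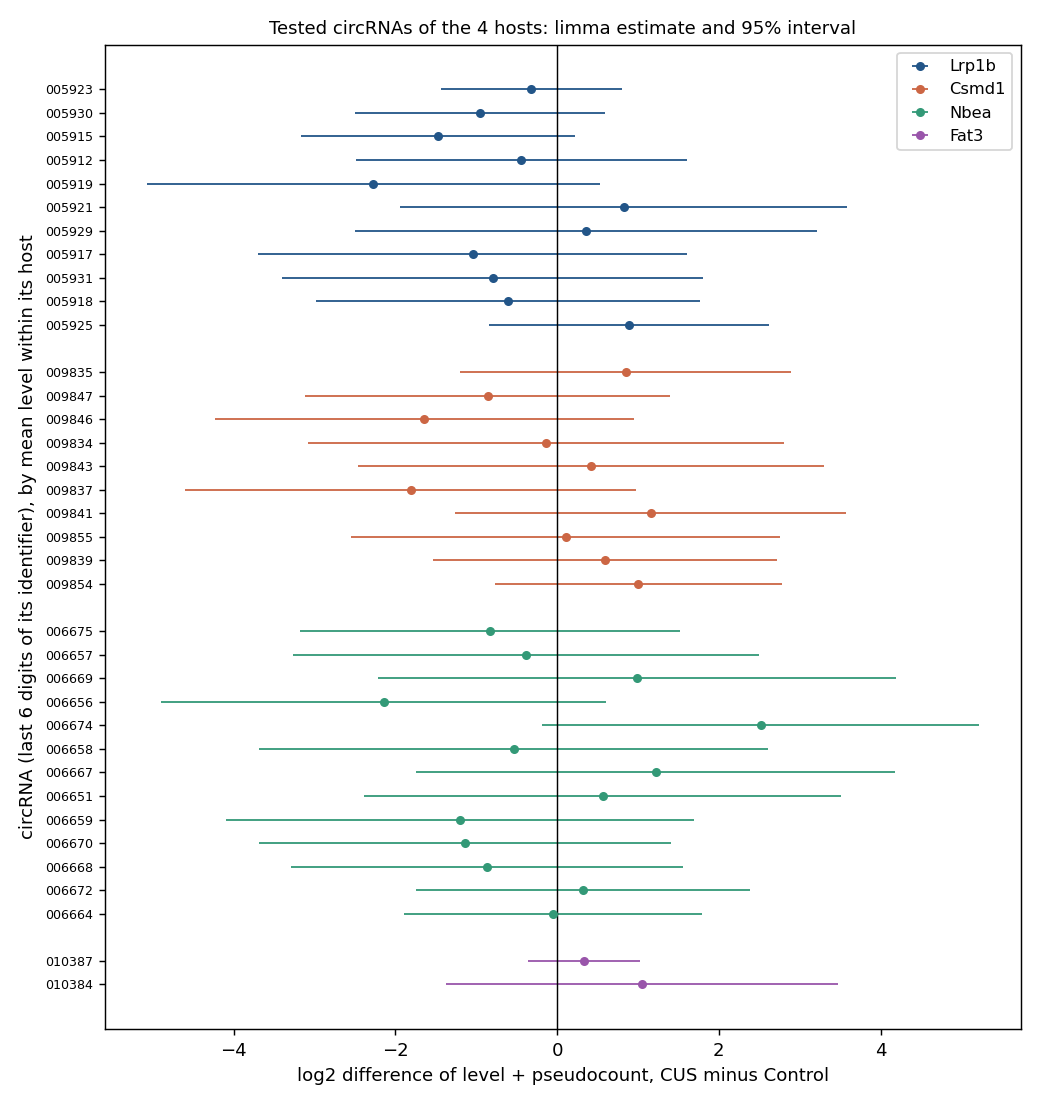
Log2 difference in level, CUS minus Control, of the 36 tested circRNAs of the 4 genes, with the limma estimate as a point and its 95% interval as a line. Every interval crosses 0, and the narrowest, of Fat3 mmu_circRNA010387, runs from -0.36 to 1.03.

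Relatives of each gene were described as well, by family. In the LDL receptor family 7 of 16 genes had 52 circRNAs in all, 30 of them from Lrp1b, and Lrp6, a Wnt coreceptor gene, came next with 7. Lrp1, the closest relative of Lrp1b, and Lrp2, another giant receptor, were listed for no circRNA. Csmd2 and Csmd3 have 71 exons each, about as many as Csmd1, and had 9 and 10 circRNAs against its 26. They are shorter, at 579.8 and 1211.4 kb, and per 100 kb Csmd2 had 1.55 circRNAs and Csmd3 0.825, beside 1.58 for Csmd1. Lrba, the closest BEACH relative of Nbea, spans 558.0 kb with 57 exons, nearly the same as Nbea, and had 8 circRNAs against 24. Its host sum was 642, 2153 and 612 in Control and 0, 922 and 2031 in CUS, below Nbea in every library. Among Fat, Dachsous and flamingo cadherins, 6 of 9 genes had circRNAs, and Fat1 and Fat4 had 1 each, at 343 in Control replicate 2 and at 639 in CUS replicate 3 alone.

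None of the hosts in these families passed limma's test between CUS and Control. That was 0 of 6 tested LDL receptor family hosts, 0 of 6 with CSMD or sushi domains, 0 of 4 with a BEACH domain and 0 of 1 cadherin, at adjusted as well as unadjusted p under 0.05. Groups did not overlap for Sorl1 (362, 446 and 410 in Control, 1241, 1138 and 805 in CUS). Nor did they for Ldlrad3, which went the other way (509, 751 and 229 against 168, 0 and 0). Over all host sums tested, 11.4% (254) did not overlap. Of 50 other genes listed as very long and neuronal, 1 of which (Park7) spans 17.3 kb, 42 had 234 circRNAs in all. Of the 32 tested, 0 passed an adjusted p under 0.05, and 4 had an unadjusted limma p under 0.05, all lower in CUS, where 3.14% (70) of all hosts tested had such a p and were lower. These were Magi2, a synaptic scaffold gene, Mdga2, a synapse adhesion gene, Auts2 and Galntl6. Magi2 was at 5301, 5507 and 3298 in Control and at 2871, 2138 and 1582 in CUS, and Auts2 at 1156, 661 and 1718 against 271, 285 and 158. Mdga2 and Galntl6 were listed at 0 in CUS replicate 1 and overlapped between groups. The fitted difference was above 0 for 9 and below 0 for 23 of the 32, with a median of -0.53. Over all hosts tested it was above 0 for 1065 and below 0 for 1162, with a median of -0.06. The list was chosen with earlier results of these data known, so these values are a description of its genes and not of long hosts in general.

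Hosts whose sums varied most like each gene were looked up among 919 other hosts above 0 in all 6 libraries, by Pearson's r of the log2 host sum over the 6 libraries. They were Zfa-ps (r = 0.973), Cdc42 (0.967) and Igsf11 (0.962) for Lrp1b, and Ipo11 (0.957), Ksr2 (0.937) and Arel1 (0.935) for Csmd1. For Nbea they were Klhl3 (0.992), Rab3ip (0.982) and Vps50 (0.975), and for Fat3 Cdk5r2 (0.962), Herc3 (0.95) and Strbp (0.911). These are the highest of 919 values over the same 6 libraries, and are given as a description. None of the 4 genes was among the 3 closest hosts of another.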

How the data were processed

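CircRNA levels were measured in 6 hippocampal libraries, 3 Control and 3 CUS. The authors deposited 1 table of log10 values per circRNA and library, 0 where none was found. That the scale is log10 was inferred from the lowest values of each library. As powers of 10 they were fitted by whole multiples of 1 step per library, with 17 steps as the lowest. Higher values were not part of this fit. The submitters' processing notes name mm9, StringTie, DESeq and edgeR, with no step attached, and no source used here names the circRNA caller. All value columns were used. Host identifiers were matched to GENCODE vM21 (4467 of 4483), so gene positions are on GRCm38 and no positions were converted.

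CircRNAs with several hosts went to their only protein-coding host, otherwise to none, which gave 9791 circRNAs of 3772 hosts. For the 4 genes every circRNA listing the identifier was summed. CUS and Control were contrasted on log2(level + 45.5) by limma (version 3.58.1, R 4.3.3), with empirical Bayes variances that follow a trend. The pseudocount, 45.5, is the middle of the libraries' lowest nonzero levels. Such differences understate the change of low circRNAs, and a single 0 can enlarge them. Features above 0 in at least 3 of 6 libraries were tested, over the whole table, with Benjamini-Hochberg adjustment and a threshold of 0.05. Numbers and shares per library were compared with exact two-sided permutation tests. The fit was also run on simulated data, as a check of the code. Their noise was set well below that of these libraries, so the run does not show which changes could be found here. Other software was matplotlib 3.10.9, scipy 1.17.1, pandas 2.3.3 and numpy 2.4.6 under Python 3.11.15.

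The rule for named circRNAs took the 3 of highest mean per gene, those above 0 in all libraries, those at unadjusted p under 0.05, those present in 1 group only in all its libraries, and close pairs. Others were named after their values were seen. The members and lists were chosen with earlier results of these data known. Alternatives covered the pseudocount, the filter, the variance trend, scaling, a replicate block, the summed circRNAs and each library left out.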

Additional observations from a re-analysis of the deposited data

How the results depend on the processing

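Of 233 values recomputed under other settings, 17 changed sign, 6 counts moved and 210 did neither. The last include differences to or from 0, which have no sign to change: that in the number of Fat3 circRNAs (0) ran from -0.333 to 0.333 with 1 library left out, and that of Lrp1b (0.667) was 0 with 1 of its close pair counted and without CUS replicate 2. The counts of circRNAs and of hosts at an adjusted p under 0.05 were 0 under every setting run. The count of members at an unadjusted limma p under 0.05 was 0. With no filter it became 1 (mmu_circRNA010386), beside 1.61% of all 10652 circRNAs tested. Among circRNAs above 0 in all 6 libraries it was 1 (mmu_circRNA005915), beside 3.98% of all 804. Without a variance trend it was 1 (mmu_circRNA006674), beside 6.72% of all 3896, and with single libraries left out it was 0 to 3. The log2 difference of the Nbea host sum turned to -0.001 under quantile normalization and -0.012 without its leading circRNA, and that of Fat3 to -0.617 without its leading circRNA. With 1 library left out, log2 differences ran from -0.128 to 0.271 for Nbea, -0.376 to 0.219 for Csmd1 and -2.08 to 0.678 for mmu_circRNA006675. Differences in the number above 0 ran from -0.333 to 2.17 for Lrp1b and -3.17 to 0.833 for Csmd1, and those in the leading share, in percentage points, from -7.74 to 7.73 for Lrp1b and -10.4 to 8.39 for Nbea. The cause was not tested. The host sums of Lrp1b (-0.644 to -0.242) and Fat3 (0.031 to 0.404) kept their direction with any library left out. The leading share of Fat3 (4.86 to 8.39 points) could not turn, since every CUS library was above every Control library. With a library left out, the exact permutation test of that share cannot go below p = 0.2. Same-numbered libraries did not deviate together (r = -0.011, -0.025 and -0.02 over 3896 circRNAs). Control and CUS libraries of different numbers were near 0 as well (r = -0.009 to 0.029), so these values cannot settle whether the numbers pair samples. A limma fit with the replicate block gave 0 members at an unadjusted p under 0.05 and a mmu_circRNA006675 difference of -0.826. With 3 libraries a group and unknown read numbers, small changes were not detectable.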
